A study of Mus musculus with 3 samples.

Results

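The 30 genes described here encode enzymes of cholesterol and fatty acid synthesis together with the proteins that control them. They were taken by symbol from the 32285 genes of the deposited count matrices, and all 30 were found once in each library. By role, 7 belong to the mevalonate pathway, 11 act between squalene and cholesterol, 6 control the pathway or transport sterol, and 6 synthesise fatty acids. The study profiled Alcam+Sca-1- bone-lining cells (BLCs) from wild-type (WT) mice by droplet-based single-cell RNA sequencing of transcript 3′ ends. Femora, tibiae and iliac bones were crushed after the marrow had been flushed out, digested with collagenase, stained for CD45, Ter119, CD31, Alcam and Sca-1, and sorted. There was 1 group with 3 replicate libraries and no treatment, so the comparisons made here are between cell populations within the libraries. The strain, age and number of mice behind each library are not given in the labels. The p-values measure the spread of populations between libraries that is left once differences shared by a library are removed, pooled over populations. That spread may be technical, and the 3 libraries are the only replicates.

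Cholesterol is built from acetyl-CoA through mevalonate, isoprenoid phosphates and squalene, and fatty acids are built from the same acetyl-CoA through malonyl-CoA. The genes of both branches are classical targets of the sterol regulatory element-binding proteins, of which Srebf2 is best known for sterol genes and Srebf1 for fatty acid genes. Scap carries these factors out of the endoplasmic reticulum when sterol is low, and Insig1 and Insig2 hold Scap back when sterol is sufficient. Insig1 is itself a target of the pathway, whereas Insig2 is known to be regulated differently. In cartilage, cholesterol synthesis is required for normal chondrocyte differentiation, and hedgehog proteins carry a cholesterol group.

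The upstream sequences of 6 genes are shown to set the sterol, control and fatty acid genes side by side, 5 of them with a CCAAT box and Acly with neither of the motifs searched. RefSeq promoters (build GRCm38.p6) were at hand for 24 of the 30 genes, read along the strand of the gene. The 250 bases before each start were searched on both strands for the CCAAT box (CCAAT, the site of nuclear factor Y) and for a short form of the sterol response element (TCACNCCAC). Each match was counted, also where matches overlapped. Capitals mark these motifs in the 150 bases before the start, where a pair of CCAAT boxes on opposite strands overlapped in Fasn, 62 and 59 bases before its start.
Hmgcs1, chr13:119690201-119690350, plus strand: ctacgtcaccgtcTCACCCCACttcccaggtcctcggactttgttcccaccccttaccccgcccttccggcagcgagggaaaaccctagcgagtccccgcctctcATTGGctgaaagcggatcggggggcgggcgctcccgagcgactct
Mvd, chr8:122443423-122443572, minus strand: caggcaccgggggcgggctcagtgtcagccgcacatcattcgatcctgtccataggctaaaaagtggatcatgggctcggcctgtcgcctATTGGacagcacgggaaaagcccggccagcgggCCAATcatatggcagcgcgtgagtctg
Lss, chr10:76531455-76531604, plus strand: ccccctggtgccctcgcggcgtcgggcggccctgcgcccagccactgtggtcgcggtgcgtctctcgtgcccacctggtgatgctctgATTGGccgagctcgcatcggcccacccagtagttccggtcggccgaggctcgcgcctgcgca
Insig2, chr1:121332590-121332739, minus strand, 1 of its 3 starts: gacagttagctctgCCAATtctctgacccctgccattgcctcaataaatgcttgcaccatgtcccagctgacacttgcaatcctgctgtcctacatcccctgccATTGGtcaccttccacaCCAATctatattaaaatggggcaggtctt
Fasn, chr11:120824548-120824697, minus strand: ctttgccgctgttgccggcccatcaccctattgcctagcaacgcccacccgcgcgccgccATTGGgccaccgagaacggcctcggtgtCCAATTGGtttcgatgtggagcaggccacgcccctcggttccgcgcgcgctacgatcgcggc
Acly, chr11:100528001-100528150, minus strand: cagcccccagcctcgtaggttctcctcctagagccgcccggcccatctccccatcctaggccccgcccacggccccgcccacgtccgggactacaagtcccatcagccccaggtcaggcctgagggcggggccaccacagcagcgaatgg

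Hmgcs1, Mvd and Lss are sterol genes whose mean was highest in Sfn Krt16 cells, and Fasn and Acly stand for the fatty acid branch. Insig2 is the control gene that was lower in the mean of chondrocyte-like states than in that of stromal populations. A CCAAT box was found in 19 of the 24 genes (79.2%), against 37.5% of all 27025 genes with a promoter. By role it was present in 5 of 6 mevalonate genes, 9 of 9 genes between squalene and cholesterol, 4 of 5 control genes and 1 of 4 fatty acid genes, the 1 being Fasn. The short sterol response element was found in Hmgcs1 alone, 137 bases before the start used, and in 1.23% of all genes. That start did not match a transcript start in the annotation, whereas 29 of the 32 promoters of these genes did. These matches describe letters in a window and no binding was measured.

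Cells were clustered without the 30 genes and 47 further lipid genes, so that none of them placed a cell in a cluster, although genes that vary with them could. This gave 12 mesenchymal populations with 16893 of 18232 cells kept. Of these, 6 were chondrocyte-like states with 12585 cells, named here by their leading or defining genes: growth plate, cycling, Lef1-high, Ibsp-high, Sfn Krt16 and Wif1 Cytl1. A cluster high in Cilp and Clu, with the inflammatory genes Lcn2 and Nos2 among its leading genes, had no class of its own and is called Cilp-high. The list behind the Wif1 Cytl1 name (Cytl1, Wif1, Myoc and Chad) summed to 34799 to 36724 CPM in those cells. In Sfn Krt16 cells it summed to 37089 to 42436 CPM and in Cilp-high cells to 29341 to 37662 CPM. The list therefore did not set Wif1 Cytl1 cells apart from these. The stromal populations were Cxcl12-abundant reticular (CAR)-like, osteoblast-like, tendon-like, fibroblast-like and mural-like cells. The fibroblast marker list summed to 1778 to 2363 CPM in fibroblast-like and 1252 to 2147 CPM in tendon-like cells, so it did not set them apart. The tendon marker list did, at 6003 to 9569 CPM in tendon-like and 1162 to 2010 CPM in fibroblast-like cells. Counts were summed per population and library where at least 20 cells were present, which gave 32 sums, and levels are given in CPM, the count of a gene scaled by the total count of its sum.

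Replicate 1 stood apart in its make-up. It held 9 growth plate cells and 1 cycling cell, so these states were measured in replicates 2 and 3 only, and 31 to 106 cells in each of the other chondrocyte-like states. The summed level of 12 chondrocyte markers ran from 79014 to 85766 CPM in growth plate cells, from 9645 to 42697 CPM in Lef1-high cells and from 513 to 12918 CPM in the CAR-like, osteoblast-like, tendon-like and fibroblast-like sums. The part of free chondrocyte RNA in these stromal levels was not tested. Median depth per cell was 12270 unique molecular identifiers (UMIs) in growth plate, 14850 in cycling, 5639 in CAR-like and 1818 in osteoblast-like cells, and the other populations lay between 4296 and 7404 UMIs. Libraries shared 5, 9 and 28 cell barcodes in pairs.

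Sterol genes were highest in the Sfn Krt16, cycling and Ibsp-high chondrocyte states and lowest in osteoblast-like and CAR-like cells. The 18 sterol genes summed to 1829, 2875 and 3200 CPM in Sfn Krt16 cells of replicates 1, 2 and 3, and to 1620, 2258 and 2753 CPM in Ibsp-high cells. In cycling cells they summed to 2389 and 2866 CPM, and in growth plate cells to 1601 and 1606 CPM, in replicates 2 and 3. Within each library Sfn Krt16 cells held the most, and in replicates 2 and 3 cycling cells held more than Ibsp-high cells, although the ranges over libraries overlapped. This order was not tested. Lower down, Cilp-high cells held 850 ± 22.7 CPM (SD, n = 3), Lef1-high cells 777 ± 53.4 and Wif1 Cytl1 cells 734 ± 276, and the range of Wif1 Cytl1 cells (420 to 942 CPM) took in the other two. CAR-like cells held 277 ± 39.2 CPM and osteoblast-like cells 173 ± 85.3 CPM. Tendon-like (312 ± 86.9 CPM) and fibroblast-like cells (347 ± 48.2 CPM) were close to them, and the 1 mural-like sum was 396 CPM.

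The fatty acid genes followed another order. Their 6 levels summed to 752 ± 49.6 CPM in cycling (SD, n = 2) and 646 CPM in both libraries of growth plate cells, but to 266 ± 58.9 CPM in Ibsp-high cells (SD, n = 3). CAR-like cells, with almost the lowest sterol sum, held 540, 386 and 358 CPM of fatty acid genes, which overlapped the 573, 416 and 424 CPM of Lef1-high cells. Cilp-high cells were low and even at 182 ± 5.27 CPM. The sterol sum over the fatty acid sum was therefore 7.96 to 8.76 in the 3 Ibsp-high sums, 4.62 to 7.59 in Sfn Krt16, 2.48 and 2.49 in growth plate and 0.446 to 0.888 in CAR-like cells. The ranges of Ibsp-high, growth plate and CAR-like cells did not overlap.

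**Figure D1:**
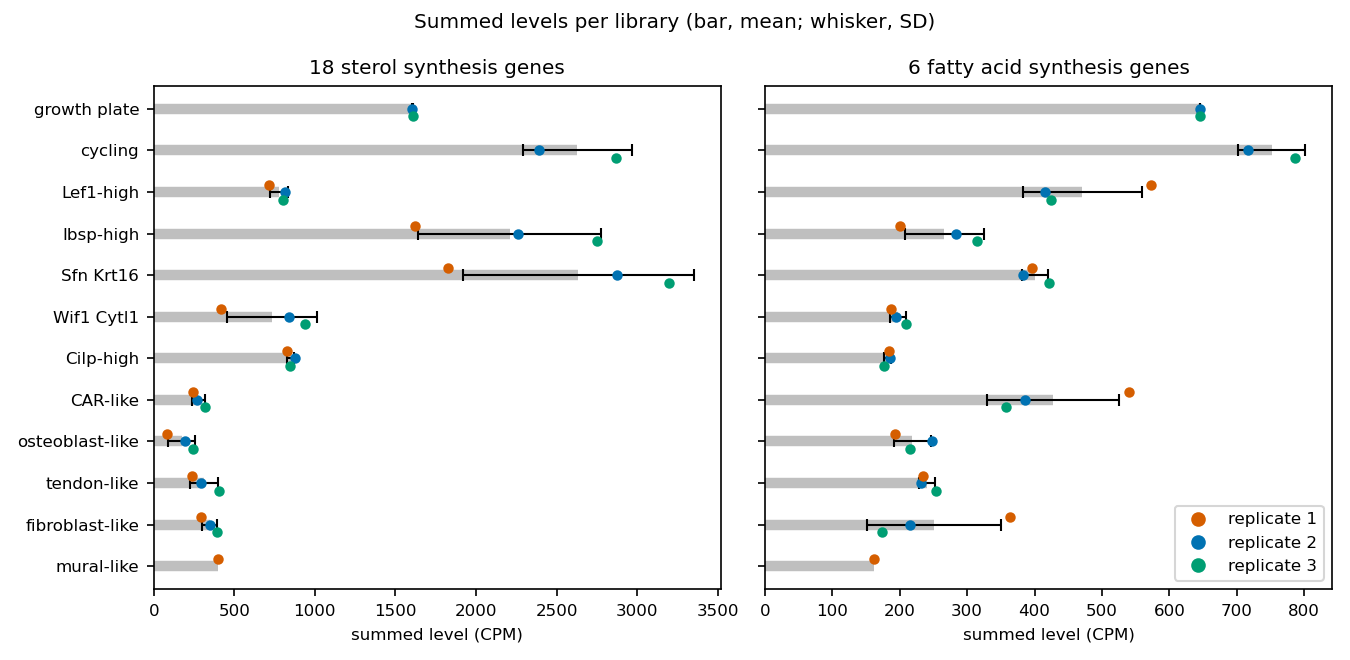
Summed level in CPM of the 18 sterol synthesis genes (left) and the 6 fatty acid synthesis genes (right) in each population, with a point per library, a bar for the mean and a whisker for the SD. Sterol sums reach 3200 CPM in Sfn Krt16 cells and do not exceed 406 CPM in stromal populations, whereas the fatty acid sums of CAR-like cells lie at 358 to 540 CPM beside those of Lef1-high cells.

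Gene by gene, the place of the highest mean level differed. It fell in Sfn Krt16 cells for 9 genes, namely Hmgcs1, Mvd, Idi1, Sqle, Lss, Cyp51, Hsd17b7, Insig1 and Stard4. For 13 genes it fell in cycling cells, among them the sterol genes Acat2, Pmvk, Fdps, Fdft1, Nsdhl, Ebp, Sc5d and Dhcr7. The cycling means cover replicates 2 and 3, and the Sfn Krt16 means also take in replicate 1, where the sterol sum was lowest. Close orders, such as 104 against 99.5 CPM for Srebf2, were not tested. Msmo1, a sterol C4-methyl oxidase, was highest in Ibsp-high cells at 393 CPM on average and lowest in CAR-like cells at 8.73 CPM. Acaca and Scd1 were highest in CAR-like cells, Insig2 and Tm7sf2 in osteoblast-like cells, Srebf1 in Lef1-high cells, Scap in tendon-like cells and Mvk in the 1 mural-like sum. The lowest mean fell in osteoblast-like cells for 11 genes.

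**Figure D2:**
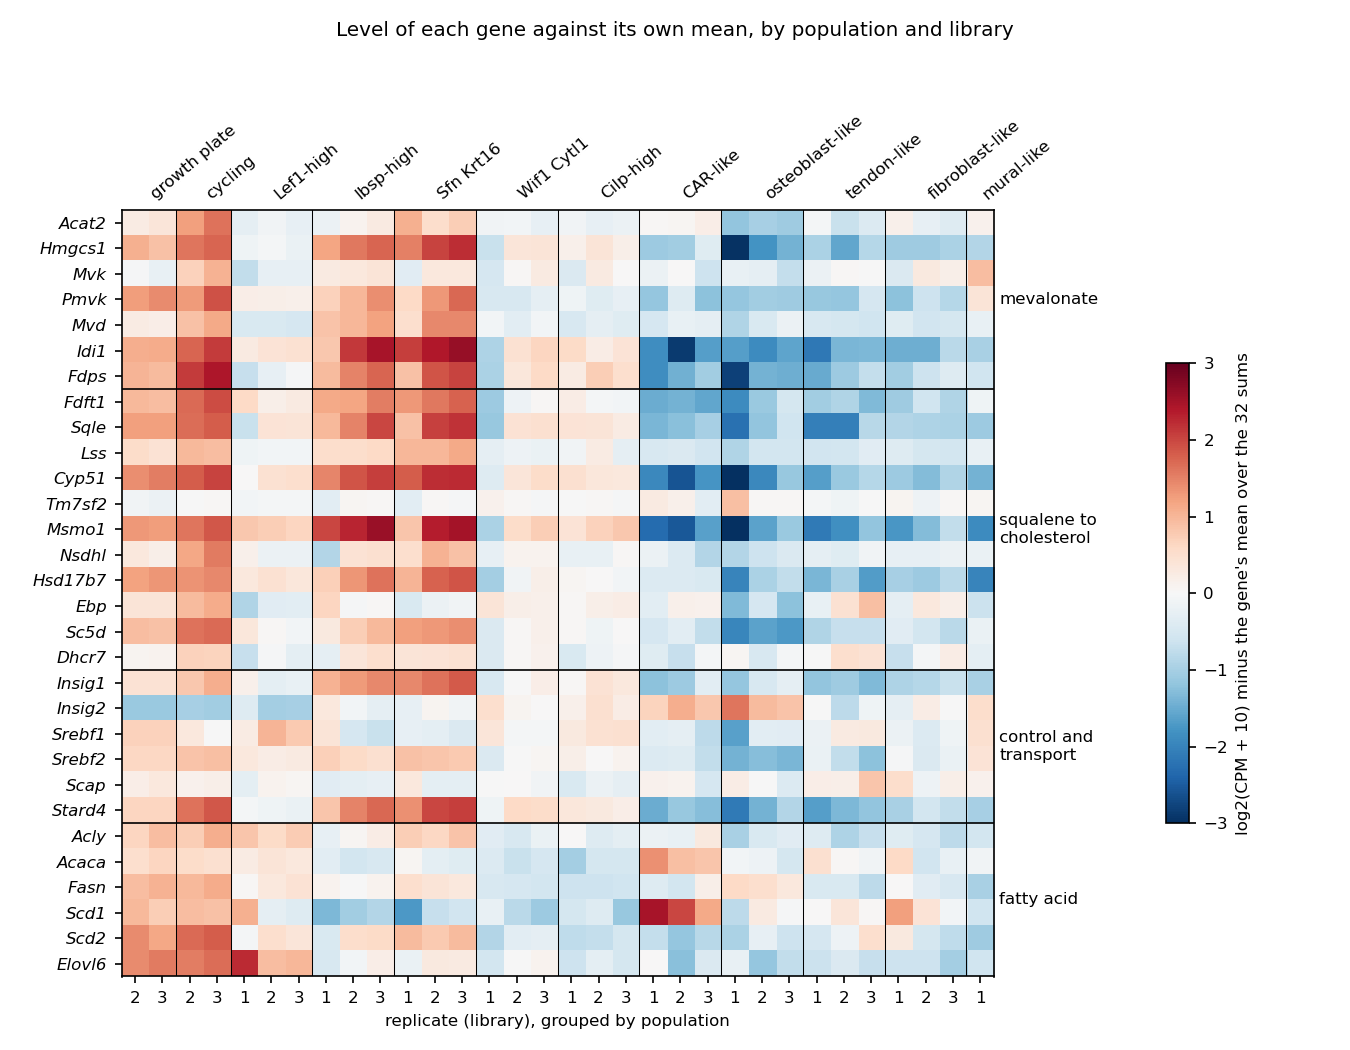
Level of each of the 30 genes in the 32 sums, as log2(CPM + 10) minus the mean of the gene over the sums, with red above and blue below that mean and columns grouped by population and labelled by library. Most sterol rows are red in cycling, Ibsp-high and Sfn Krt16 columns and blue in stromal columns, with Tm7sf2, Mvk, Ebp and Dhcr7 among the exceptions, while Insig2 and Scd1 are highest outside the chondrocyte states.

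The first comparison asked how chondrocyte-like states differed from stromal populations, as the mean of the 6 states minus the mean of CAR-like, osteoblast-like, tendon-like and fibroblast-like cells. Of the 30 genes, 25 rose and 2 fell at an adjusted p under 0.05 (edgeR quasi-likelihood test with the library as a block, Benjamini-Hochberg over 15303 genes), where 56.3% of all genes were called. All 7 mevalonate genes and 10 of the 11 genes between squalene and cholesterol rose. The median log2 fold change was 2.02 over the 30 genes and 0.09 over all genes tested. Of all called genes, 57.3% were higher in chondrocyte-like states, 47.4% with median-ratio size factors and 45.3% by DESeq2. Their medians over all genes were −0.05 and −0.09.

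Idi1 (isopentenyl-diphosphate isomerase) ranged from 28.3 to 435 CPM over the Lef1-high, Ibsp-high, Sfn Krt16, Wif1 Cytl1, growth plate and cycling sums. In CAR-like cells it was at 10.2, 0 and 13.4 CPM in replicates 1, 2 and 3, in osteoblast-like cells at 13.3, 9.81 and 14.6 CPM, in tendon-like cells at 6.66, 18.5 and 18.8 CPM and in fibroblast-like cells at 16.5, 16.4 and 31.6 CPM. Only the Wif1 Cytl1 sum of replicate 1 (28.3 CPM) came below the highest of these stromal levels, 31.6 CPM. The log2 fold change was 3.94 ± 0.21 for Idi1 (SE, adjusted p = 7.7e-16) and 3.97 ± 0.18 for Msmo1 (adjusted p = 2.6e-17, edgeR quasi-likelihood test). The other 8 of the 10 largest changes were Cyp51 (lanosterol demethylase, 3.48 ± 0.16), Sqle (squalene epoxidase, 3.47 ± 0.22), the sterol carrier Stard4 (3.35 ± 0.16), Fdft1 (squalene synthase, 3.35 ± 0.18), Fdps (2.97 ± 0.14), Sc5d (2.89 ± 0.15), Hsd17b7 (2.87 ± 0.17) and Hmgcs1 (2.69 ± 0.14). Each was higher in 3 of 3 libraries.

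Of the control genes, Srebf2 rose by 1.79 ± 0.11 and Srebf1 by 0.83 ± 0.15 on the log2 scale, and Insig1 by 2.00 ± 0.11. Insig2 fell by 0.70 ± 0.10 (adjusted p = 4.9e-07, lower in 3 of 3 libraries, edgeR quasi-likelihood test). Its mean level was highest in osteoblast-like (161 CPM) and CAR-like cells (129 CPM) and lowest in growth plate cells (25 CPM), with the other populations between. Scap, at 0.15 ± 0.14, was not called (adjusted p = 0.38, edgeR). Among fatty acid genes Acly, Fasn, Scd2 and Elovl6 rose, by 1.06 ± 0.11 for Fasn to 2.23 ± 0.17 for Elovl6 and by 1.55 ± 0.15 for Scd2, Scd1 fell by 0.50 ± 0.16, and Acaca (0.13 ± 0.12) was not called. Tm7sf2, a sterol reductase with counts near the floor in most sums, had a difference of 0.13 ± 0.30. Tm7sf2 overlaps Vps51 on the same strand in the annotation, and Acat2 has a near-identical neighbour, Acat3, so reads of both may have been split or lost in counting.

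Among the 47 further lipid genes, 13 rose and 10 fell, a smaller share than the 56.3% of all genes. The largest were the lipoprotein lipase Lpl (−4.50 ± 1.59), the sterol exporter Abca1 (−3.26 ± 0.11, 14.6 CPM in chondrocyte-like states and 143 CPM in stromal populations) and malic enzyme Me1 (2.32 ± 0.12). Of 9 genes of sterol efflux and esterification, 2 rose and 5 fell, and of 11 glycerolipid and lipid droplet genes 1 rose and 4 fell. Of 7 genes of the isoprenoid branch 3 rose, of 6 genes of SREBP processing and sterol sensing 2 rose, and of 14 genes of fatty acid activation, elongation and desaturation 5 rose and 1 fell, each again a smaller share than that of all genes, as was that of the glycerolipid genes.

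Each chondrocyte-like state was next set against the mean of the other 5. These 6 comparisons were added once the leading genes of the clusters had been seen, Idi1 being among those of the Sfn Krt16 cluster, and they share the same sums. Sfn Krt16 cells had Dhrs9, Il11, Krt16 and Sfn among their leading genes, beside cartilage genes such as Col2a1, Chadl and Cnmd. The list behind their name (Sfn, Krt16 and Tnfaip6) summed to 331 to 960 CPM there and 516 to 561 CPM in growth plate cells. A list of superficial cartilage markers summed to 90624 to 113062 CPM in Sfn Krt16 cells and 91684 to 151457 CPM in Cilp-high cells. In Sfn Krt16 cells 21 of the 30 genes rose and 1 fell, against 23.7% of all genes called. All 7 mevalonate genes and 9 of 11 genes between squalene and cholesterol rose, as did Insig1, Insig2, Srebf2, Stard4 and Acly. The fall was in Srebf1. Elovl6, Scd1, Acaca, Fasn and Scd2 were not called, at log2 fold changes of −0.50 to 0.48, and the median was 0.95 over the 30 genes against −0.05 over all genes.

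Mvd (mevalonate diphosphate decarboxylase) was at 16.3, 40.3 and 40.7 CPM in Sfn Krt16 cells, 23.8, 27.1 and 33.4 CPM in Ibsp-high cells and 3.55, 3.66 and 3.15 CPM in Lef1-high cells of replicates 1, 2 and 3. Growth plate cells held 12.2 and 11.3 CPM of Mvd in replicates 2 and 3. Within each library the order of Sfn Krt16 and Ibsp-high cells was not the same, since Ibsp-high was the higher in replicate 1. Mvd rose in Sfn Krt16 cells by 2.00 ± 0.13 on the log2 scale (adjusted p = 1.9e-12, edgeR quasi-likelihood test). Idi1 (1.61 ± 0.23), Stard4 (1.51 ± 0.16), Insig1 (1.50 ± 0.14), Hmgcs1 (1.44 ± 0.18) and Lss (lanosterol synthase, 1.39 ± 0.13) followed, each higher in 3 of 3 libraries, then Sqle, Cyp51, Hsd17b7 and Fdps at 1.29 to 1.19. Insig2 rose by 0.94 ± 0.15 and Srebf2 by 0.64 ± 0.14, Srebf1 fell by 0.61 ± 0.20, and Scap (−0.26 ± 0.18) and Scd2 (0.48 ± 0.21) were not called. Among further lipid genes Plin2 fell by 2.42 ± 0.35, and Fabp4 (2.32 ± 0.41) and the acetyl-CoA synthetase Acss2 (1.68 ± 0.20) rose. Without replicate 1 all 22 calls were kept and Elovl6, Fasn, Scd1 and Scd2 were also called. That fit called 5982 of 14347 genes, against 3629 of 15303 in the main fit. Without replicate 2 or 3, 8 or 12 genes were called.

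Ibsp-high cells, matched to the list of hypertrophic markers, were high in sterol genes and low in some fatty acid genes. Against the other 5 states 16 genes rose and 4 fell, where 14.7% of all genes were called. The rises took in 6 mevalonate genes, 7 genes between squalene and cholesterol, Insig1, Insig2 and Stard4, and the falls were in Srebf1, Scd1, Elovl6 and Acaca. Mvd (1.51 ± 0.14), Msmo1 (1.41 ± 0.20), Scd1 (−1.11 ± 0.27) and Idi1 (1.08 ± 0.23) changed by at least 1 on the log2 scale. Insig1 rose by 0.99 ± 0.14, Insig2 by 0.81 ± 0.15, Hmgcs1 by 0.87 ± 0.18 and Cyp51 by 0.88 ± 0.19, and Srebf1 fell by 0.97 ± 0.21. Srebf2 (0.26 ± 0.15), Scap (−0.29 ± 0.18) and Scd2 (−0.16 ± 0.21) were not called. Without the library block 12 genes were called, without replicate 1 there were 23, and without replicate 2 or 3 there were 2 or 3.

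Set against growth plate cells alone, 12 genes rose and 7 fell in Ibsp-high cells, where 34% of all genes were called. Scd1 (stearoyl-CoA desaturase) was at 10.2, 14.8 and 18 CPM in Ibsp-high cells of replicates 1, 2 and 3 and at 89.8 and 74.8 CPM in growth plate cells of replicates 2 and 3. Elovl6, which elongates saturated fatty acids, was at 20.4, 30.3 and 38.9 CPM in Ibsp-high against 104 and 115 CPM in growth plate cells, and Srebf1 at 30.6, 11.7 and 9.58 against 40.1 and 40.4 CPM. The groups did not overlap for any of these 3 genes. The log2 fold change was −2.15 ± 0.32 for Scd1 (adjusted p = 4.7e-06), −1.55 ± 0.24 for Srebf1 and −1.51 ± 0.27 for Elovl6 (edgeR quasi-likelihood test). Acaca and Fasn, the enzymes that make malonyl-CoA and palmitate, fell by 1.15 ± 0.22 and 0.91 ± 0.17, and Acly and Scap fell by 0.56 ± 0.22 and 0.62 ± 0.22. Scd2, at −0.69 ± 0.29, was not called.

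Of the 18 sterol genes 9 rose in the same comparison, none fell and 9 were not called. Mvd rose by 1.59 ± 0.19 and Msmo1 by 1.47 ± 0.31, Idi1 by 1.27 ± 0.35, Stard4 by 1.24 ± 0.23, Mvk by 1.18 ± 0.24, Fdps by 0.91 ± 0.23 and Hmgcs1 by 0.87 ± 0.27 on the log2 scale. Msmo1 was at 316, 387 and 476 CPM in Ibsp-high against 189 and 185 CPM in growth plate cells, with no overlap. Both inhibitors rose, Insig1 by 1.17 ± 0.21 and Insig2 by 1.47 ± 0.21, whereas Srebf2 (0.12 ± 0.20) and Cyp51 (0.69 ± 0.29) were not called. Of the 19 calls, 11 were kept without the library block, which lost Fdps, Dhcr7, Msmo1, Idi1, Hmgcs1 and Fdft1 among the rises. Of all 15303 genes, 5201 were called with the block and 3926 without it, and 7632 of 14347 were called without replicate 1. Leaving out replicate 2 or 3, which left 1 growth plate sum, gave 2 calls each time, and leaving out replicate 1 gave 24. Of the further lipid genes, Mylip, which marks lipoprotein receptors for degradation, rose by 2.96 ± 0.26 (69.7 CPM against 8.64 CPM). The desaturase Fads2 fell by 2.80 ± 0.22 and Acsl1, which activates fatty acids, by 1.79 ± 0.32.

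**Figure D3:**
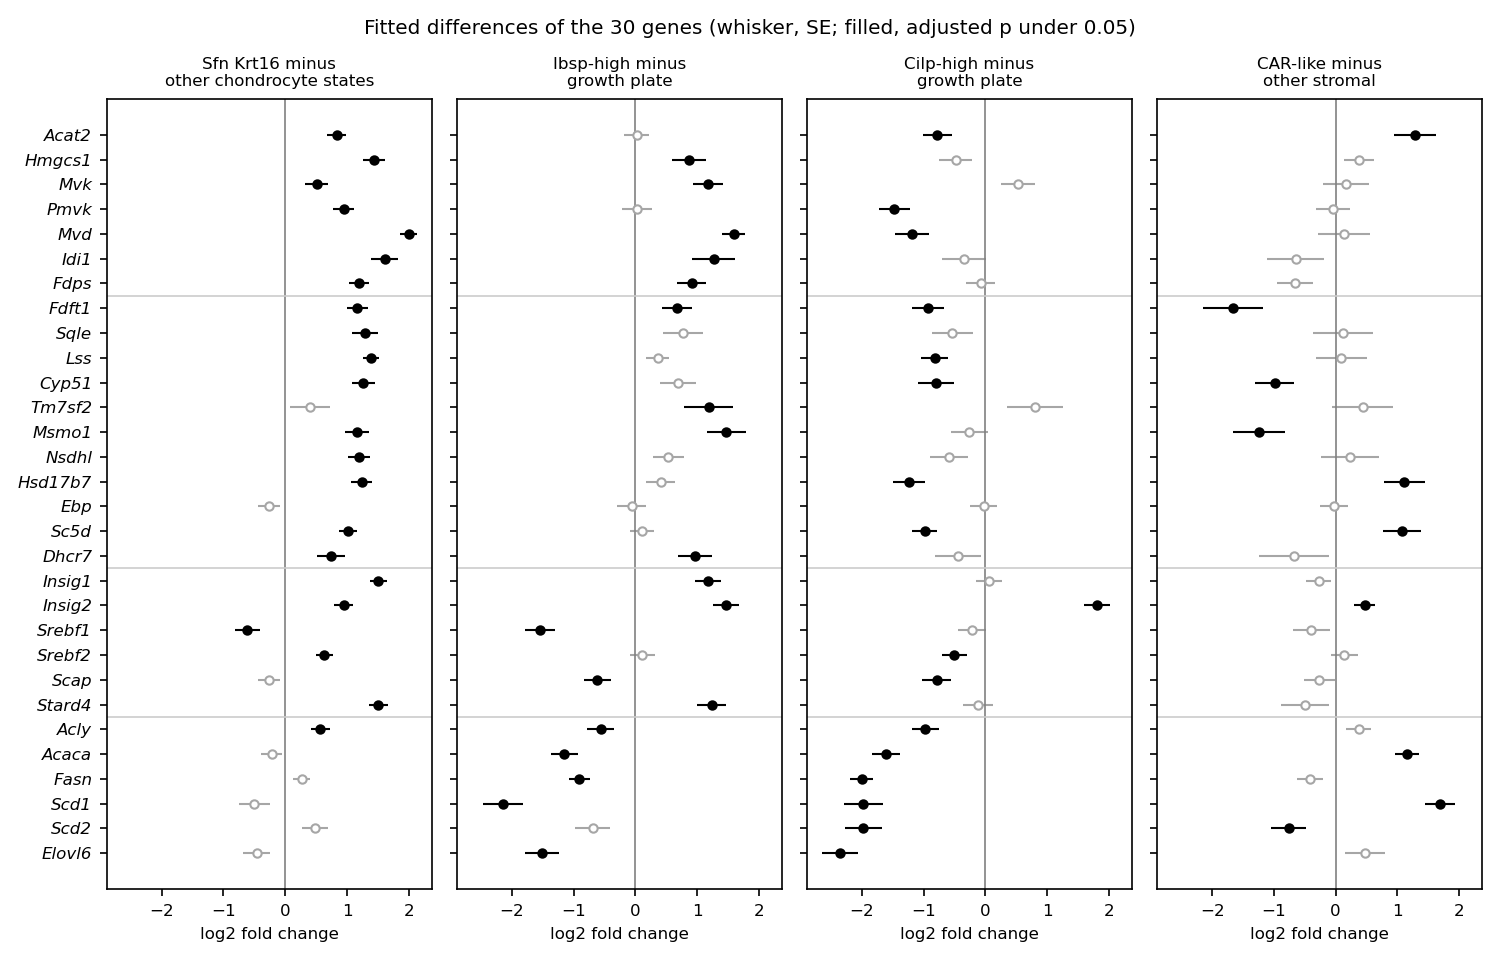
Fitted log2 fold change of each of the 30 genes (point) with its SE (whisker) in 4 comparisons, filled where the adjusted p was under 0.05, with lines between the roles. In Ibsp-high minus growth plate the sterol genes lie at or to the right of 0 and the 6 fatty acid genes to the left, and in Cilp-high minus growth plate all 6 fatty acid genes are called lower, down to −2.36 for Elovl6.

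Cycling chondrocytes differed from non-cycling growth plate cells in part of the sterol branch. In all 10 of the 30 genes rose and Srebf1 fell (−0.79 ± 0.25), where 14.6% of all genes were called. The rises were in 4 mevalonate genes, 5 genes between squalene and cholesterol and Stard4, and the log2 fold changes of the fatty acid genes, which were not called, lay between −0.17 and 0.37. Acat2, the cytosolic thiolase, was at 43.8 and 60.3 CPM in cycling cells and at 16.8 and 19.1 CPM in growth plate cells of replicates 2 and 3. Mvk (mevalonate kinase) was at 21.8 and 30.2 against 8.91 and 6.86 CPM. Both genes were higher in cycling cells in 2 of 2 libraries, with log2 fold changes of 1.40 ± 0.20 for Acat2 (adjusted p = 4.5e-06) and 1.55 ± 0.25 for Mvk (adjusted p = 2.4e-05, edgeR quasi-likelihood test). Nsdhl (1.51 ± 0.25), Fdps (1.22 ± 0.24), Stard4 (1.11 ± 0.24), Mvd (1.08 ± 0.21) and Dhcr7 (1.06 ± 0.30) also rose by more than 1. Hmgcs1 (0.60 ± 0.29), Cyp51 (0.35 ± 0.30), Scd2 (0.37 ± 0.31), Insig1 (0.43 ± 0.22), Insig2 (0.02 ± 0.23), Srebf2 (0.17 ± 0.21) and Scap (−0.25 ± 0.23) were not called. The fit without the library block called 5 genes, the fit on cells thinned to 2000 UMIs called 7, and the fit without replicate 1 called 19, with Scd2 among them. Without replicate 2 or 3, when 1 sum stood for each state, no gene of the 30 was called. Of all 15303 genes, 2239 were called in the main fit and 1477 without the block. The fit on thinned cells called 917 of 11395 genes and the fit without replicate 1 called 5212 of 14347. The median depth of cycling cells exceeded that of growth plate cells in both libraries (19415 and 12468 against 17931 and 9970 UMIs).

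Among the further lipid genes, Plin2, a lipid droplet coat protein, rose in cycling cells by 1.72 ± 0.28 and the elongase Elovl5 by 1.35 ± 0.28, while Hacd3 fell by 1.23 ± 0.30. Against the mean of the other 5 states, 18 of the 30 genes rose in cycling cells and Insig2 fell (−0.93 ± 0.20), where 29.3% of all genes were called. Here 5 of 6 fatty acid genes also rose, with Scd1 at 1.41 ± 0.24 and Scd2 at 1.12 ± 0.22, beside Acat2 (1.57 ± 0.16), Nsdhl (1.36 ± 0.20), Fdps (1.20 ± 0.17), Mvk (1.06 ± 0.20) and Sc5d (1.01 ± 0.15). Hmgcs1 rose by 0.56 ± 0.21, while Cyp51 (0.47 ± 0.23), Insig1 (0.10 ± 0.17), Srebf1 (−0.06 ± 0.21), Srebf2 (0.32 ± 0.16) and Scap (0.15 ± 0.20) were not called. Thinned to 2000 UMIs, 11 genes were called, and 2 or 3 without replicate 2 or 3. Growth plate cells against the other 5 states gave 8 rises and 5 falls where 42% of all genes were called, so the 30 genes were called about as often as all genes. The rises were in Scd1 (1.47 ± 0.22), Elovl6, Srebf1, Fasn, Acaca, Scd2, Pmvk and Scap, and the falls in Insig2 (−0.96 ± 0.17), Tm7sf2, Mvk, Stard4 and Mvd. Srebf1 rose by 0.88 ± 0.16, Scap by 0.45 ± 0.15 and Scd2 by 0.67 ± 0.22, and Hmgcs1 (−0.17 ± 0.22), Cyp51 (0.05 ± 0.23), Insig1 (−0.42 ± 0.17) and Srebf2 (0.12 ± 0.16) were not called. The count of 13 became 22 without replicate 1 and 0 or 1 without replicate 2 or 3.

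Lef1-high cells, matched to the list of Wnt-active markers, were low in sterol genes. Against growth plate cells 20 genes fell, where 33.2% of all genes were called, with 5 mevalonate, 9 squalene-to-cholesterol, 3 control and 3 fatty acid genes among them. Hmgcs1, the synthase that commits acetyl units to mevalonate, was at 108, 114 and 102 CPM in Lef1-high cells of replicates 1, 2 and 3 and at 262 and 227 CPM in growth plate cells. Pmvk was at 67.4, 66.2 and 64 CPM against 151 and 168 CPM. Neither gene overlapped between the groups. Mvd fell by 1.85 ± 0.22, Fdps by 1.36 ± 0.23, Pmvk by 1.32 ± 0.24, Scd1 by 1.29 ± 0.30 and Hmgcs1 by 1.21 ± 0.27 (adjusted p = 0.001 for Hmgcs1, edgeR quasi-likelihood test). Sc5d, Cyp51, Lss, Sqle and Scd2 fell by 1.18 to 1.10. Insig1 fell by 0.70 ± 0.21 and Srebf2 by 0.56 ± 0.19, while Srebf1 (0.07 ± 0.21), Insig2 (0.15 ± 0.21) and Scap (−0.39 ± 0.20) were not called. Of all called genes 53.7% were higher in Lef1-high cells, and 64% with median-ratio size factors, under which the median of all genes was 0.11. In number, 5080 of 15303 genes were called in the main fit, 4535 by DESeq2 and 7961 of 14347 without replicate 1. DESeq2 called 15 of the 30 genes, the fit without replicate 1 called 25, and no gene of the 30 was called without replicate 2 or 3.

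Against the other 5 states, Lef1-high cells showed 22 falls and 1 rise, where 28.2% of all genes were called. The rise was Srebf1, at 0.97 ± 0.16 on the log2 scale (adjusted p = 2.1e-05, edgeR quasi-likelihood test), with levels of 26.6, 53.3 and 43.7 CPM in Lef1-high cells, higher than the mean of the other states in 3 of 3 libraries. All 7 mevalonate genes fell, led by Mvd (−2.61 ± 0.19) and Fdps (−1.90 ± 0.19), as did Stard4 (−1.84 ± 0.20) and Hmgcs1 (−1.62 ± 0.22), then Nsdhl, Sqle, Idi1, Cyp51, Dhcr7 and Lss at −1.56 to −1.32. Insig1 (−1.26 ± 0.17), Insig2 (−0.78 ± 0.16) and Srebf2 (−0.55 ± 0.15) fell as well, and Scap (−0.01 ± 0.16) was not called. Of the fatty acid genes Scd2 fell (−0.65 ± 0.22) and the other 5 were not called.

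In Wif1 Cytl1 cells, compared in the same way, 23 genes fell and 1 rose, where 36.1% of all genes were called, and the falls included all 6 fatty acid genes (Fasn −1.48 ± 0.15, Scd2 −1.47 ± 0.23). Pmvk (−1.71 ± 0.20), Fdft1 (−1.67 ± 0.21) and Hsd17b7 (−1.55 ± 0.20) fell most among sterol genes, Lss, Mvd, Msmo1, Idi1 and Cyp51 fell by 1.45 to 1.30 and Hmgcs1 by 1.08 ± 0.21, and the rise was Insig2 (0.92 ± 0.14, 98.1, 70 and 66.8 CPM). Insig1 (−0.91 ± 0.16) and Srebf2 (−0.79 ± 0.15) fell, and Srebf1 (−0.20 ± 0.18) and Scap (−0.04 ± 0.17) were not called. Leaving out replicate 2 or 3 lowered the 23 calls of Lef1-high cells to 7 or 9 and the 24 of Wif1 Cytl1 cells to 15 or 18.

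Of the further lipid genes, Fads2 and Mylip were each among those named in 4 of these 6 comparisons of the states. Fads2 was higher in cycling cells (2.64 ± 0.14) and growth plate cells (1.89 ± 0.14) and lower in Ibsp-high (−1.47 ± 0.20) and Wif1 Cytl1 cells (−1.91 ± 0.19) than in the mean of the other 5 states. Mylip was lower in growth plate cells (−2.47 ± 0.23) and higher in Lef1-high (1.35 ± 0.16), Ibsp-high (1.08 ± 0.17) and Wif1 Cytl1 cells (1.74 ± 0.16). Against growth plate cells, Lef1-high cells were higher in Mylip (3.18 ± 0.26) and Acacb (2.26 ± 0.38) and lower in Fads2 (−1.95 ± 0.19).

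Against growth plate cells, the Cilp-high cluster was low in fatty acid genes and high in Insig2. Wif1 Cytl1 cells had a like fatty acid sum (197 CPM on average, against 182 CPM in Cilp-high cells). Growth plate cells had the lowest mean Insig2 of all populations. In Cilp-high cells 16 genes fell and 1 rose against growth plate cells, where 43.4% of all genes were called, and all 6 fatty acid genes were among the falls. Fasn was at 14.4, 14.5 and 14.7 CPM in Cilp-high cells of replicates 1, 2 and 3 and at 60.6 and 67.4 CPM in growth plate cells of replicates 2 and 3. Insig2 was at 73.8, 95 and 78.9 CPM against 25 CPM in both growth plate libraries. The groups did not overlap for either gene. The log2 fold change was −2.36 ± 0.29 for Elovl6, −2.00 ± 0.19 for Fasn (adjusted p = 7.3e-10), −1.98 ± 0.32 for Scd1, −1.98 ± 0.30 for Scd2 and −1.61 ± 0.22 for Acaca, and 1.81 ± 0.21 for Insig2 (adjusted p = 3.4e-08, edgeR quasi-likelihood test). Pmvk (−1.48 ± 0.25), Hsd17b7 (−1.24 ± 0.26), Mvd (−1.19 ± 0.27) and Cyp51 (−0.80 ± 0.29) also fell.

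Hmgcs1 (−0.48 ± 0.27), Idi1 (−0.35 ± 0.35), Msmo1 (−0.26 ± 0.31), Insig1 (0.06 ± 0.21) and Srebf1 (−0.21 ± 0.23) were not called in Cilp-high cells, whereas Srebf2 (−0.50 ± 0.20) and Scap (−0.79 ± 0.23) fell. Without replicate 2 or 3, 7 genes were called. Fads2 fell by 3.66 ± 0.26, and Mylip (3.10 ± 0.26) and the fatty acid-binding protein Fabp4 (2.62 ± 0.51) rose.

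**Figure D4:**
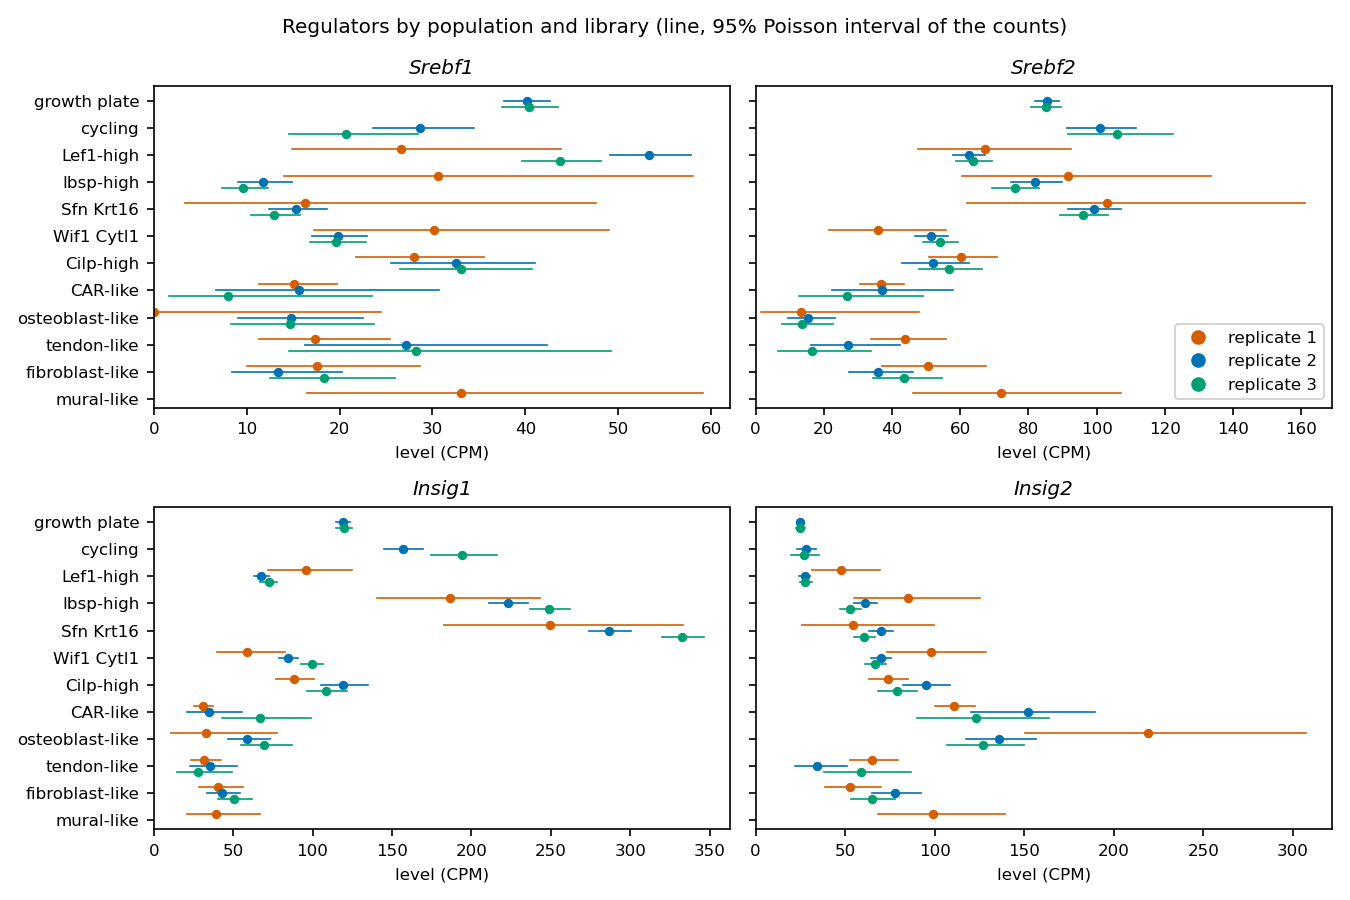
Level in CPM of Srebf1, Srebf2, Insig1 and Insig2 in each population, a point per library with the 95% Poisson interval of its count (counting error only). Insig1 is highest in Sfn Krt16 cells (250 to 333 CPM), Insig2 is lowest in growth plate cells (25 CPM) and highest in osteoblast-like cells (127 to 219 CPM), and Srebf1 is at 9.58 to 16.3 CPM in Ibsp-high and Sfn Krt16 cells except in replicate 1 of Ibsp-high cells (30.6 CPM).

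Among stromal populations, CAR-like cells were high in Scd1 and Acaca. Scd1 was at 274, 197 and 102 CPM in CAR-like cells of replicates 1, 2 and 3, at 19.9, 51.9 and 40.2 CPM in osteoblast-like, 42, 55.6 and 42.3 CPM in tendon-like and 110, 58.4 and 38.4 CPM in fibroblast-like cells. Acaca (acetyl-CoA carboxylase) was at 108, 76 and 72.2 CPM in CAR-like cells, above the highest of the 9 other stromal sums, 59.5 CPM. For Scd1 only the fibroblast-like sum of replicate 1 (110 CPM) exceeded a CAR-like sum. Against the mean of these 3 populations, Scd1 rose by 1.70 ± 0.24 (adjusted p = 1.8e-06) and Acaca by 1.15 ± 0.19 (adjusted p = 1.7e-05, edgeR quasi-likelihood test), each in 3 of 3 libraries. In all 6 of the 30 genes rose and 4 fell. This was 33.3% of the 30 genes, near the 27.7% of all genes called, and the median log2 fold change of the 30 was 0.11. Acat2 (1.28 ± 0.34), Hsd17b7 (1.12 ± 0.33), Sc5d (1.08 ± 0.30) and Insig2 (0.47 ± 0.17) rose, and Fdft1 (−1.67 ± 0.49), Msmo1 (−1.24 ± 0.42), Cyp51 (−0.99 ± 0.32) and Scd2 (−0.76 ± 0.29) fell.

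Scd1 (chr19:44394455-44407879, minus strand, GRCm38) and Scd2 (chr19:44293674-44306864, plus strand) are neighbouring paralogues, and they moved in opposite directions in CAR-like cells in the main fit. Hmgcs1 (0.37 ± 0.24), Srebf1 (−0.39 ± 0.30), Srebf2 (0.14 ± 0.21), Insig1 (−0.28 ± 0.21) and Scap (−0.26 ± 0.26) were not called. With cells thinned to 2000 UMIs 3 genes were called, of which 2 were among the 10, and without replicate 2 or 3 there were 2 or 3. Scd1 and Acaca were called in each of these fits, whereas the falls of Scd2, Fdft1, Msmo1 and Cyp51 were called in none of them. Of the 11 glycerolipid and lipid droplet genes 7 rose and none fell. Lpl was at 1012 CPM on average in CAR-like cells and 28.5 CPM in the other 3 populations, Fabp4 at 393 and 3.33 CPM and the fatty acid transporter Cd36 at 16 and 0.367 CPM.

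Osteoblast-like cells were higher in Fasn, Insig2 and Insig1 than the other 3 stromal populations, and 3 of the 18 sterol genes were lower. In all 3 of the 30 genes rose and 4 fell, a smaller share than the 31.8% of all genes called. Fasn was at 46.4, 42.8 and 36.6 CPM in osteoblast-like cells of replicates 1, 2 and 3, and at 11.7 to 32.1 CPM in CAR-like, tendon-like and fibroblast-like cells, without overlap. Insig2 was at 219, 136 and 127 CPM against 34.2 to 152 CPM, which overlapped through CAR-like cells. Fasn rose by 1.56 ± 0.20 (adjusted p = 2.6e-07), Insig2 by 1.38 ± 0.16 and Insig1 by 0.98 ± 0.20 on the log2 scale, and Acat2 (−2.64 ± 0.60), Sc5d (−2.31 ± 0.48), Ebp (−0.86 ± 0.26) and Srebf2 (−0.82 ± 0.26) fell (edgeR quasi-likelihood test). Cyp51 (0.09 ± 0.32), Hmgcs1 (−0.55 ± 0.28), Srebf1 (0.08 ± 0.33), Scap (−0.05 ± 0.30) and Scd2 (0.32 ± 0.29) were not called. The folds of Acat2 and Sc5d rest on few counts. Acat2 had 3 UMIs over the osteoblast-like sums against 126 in the other 3 populations, a ratio of pooled levels of 0.101 (exact 95% interval 0.0205 to 0.302), and Sc5d had 6 against 177, a ratio of 0.144 (0.052 to 0.319). With cells thinned to 2000 UMIs Acat2 was no longer called (adjusted p = 0.14, edgeR), and with all barcodes kept it fell by 1.39 and Sc5d, at −0.56, was not called (adjusted p = 0.23, edgeR). The replicate 1 sum held 32 cells and 150723 UMIs, so that Acat2, Sc5d, Cyp51, Msmo1, Sqle and Fdft1 at 0 there allowed up to 19.9 CPM each (3 counts). Without replicate 1, 11 genes were called. Of the further lipid genes Lpl (0.305 CPM against 366 CPM), Acacb and Plin2 fell.

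Within a state the sterol genes were spread unevenly over cells. Every cell was thinned to 2000 UMIs, which left out shallower cells, 353 of 533 osteoblast-like cells of replicate 3 being the largest share. Sfn Krt16 cells then held a mean of 3.83, 5.56 and 6.41 UMIs of the 18 sterol genes in replicates 1, 2 and 3, and Ibsp-high cells 3.17, 4.35 and 5.45. Growth plate cells held 3.04 and 3.08, cycling cells 5.21 and 5.84, and CAR-like cells 0.464, 0.613 and 0.798. The 10th percentile was 0 in every Sfn Krt16, Ibsp-high and growth plate library and 1 in both cycling libraries. The 90th percentile was 10.4, 13 and 14 in Sfn Krt16 and 9.8, 11 and 13.5 in Ibsp-high, against 7 in both growth plate libraries. In Ibsp-high cells of replicate 1, 55.2% of 29 cells held none of these UMIs, against 20.3% and 16.6% in replicates 2 and 3. The share of cells with none was 16.3% and 18% in growth plate cells and ran from 46.1% to 84% over the libraries of CAR-like, osteoblast-like, tendon-like and fibroblast-like cells. Free RNA can put UMIs into any droplet, and its part in these shares was not tested.

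**Figure D5:**
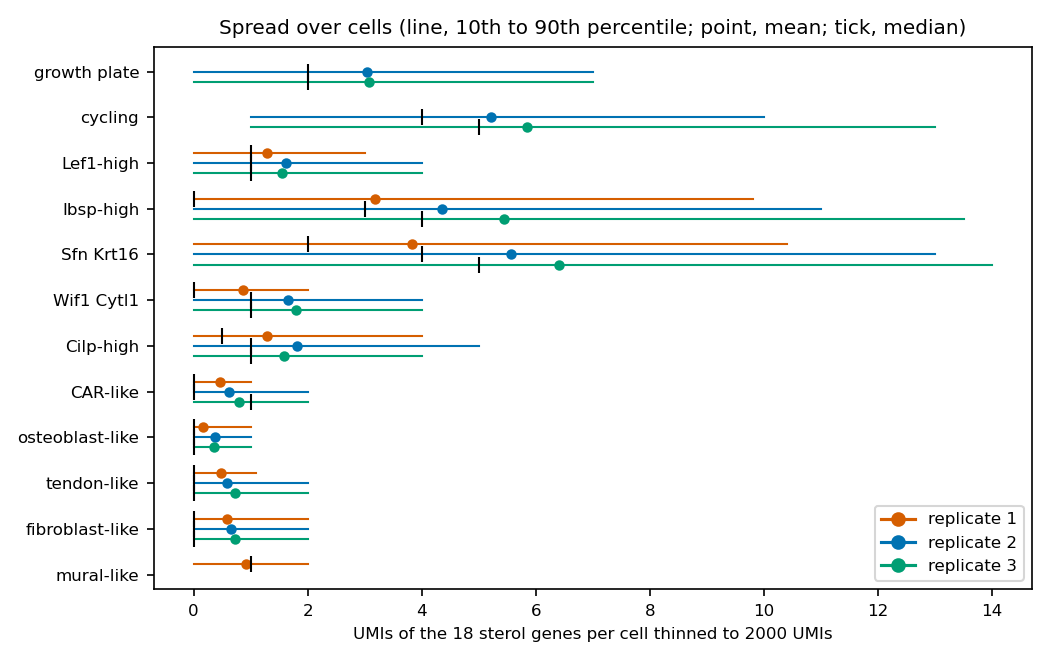
UMIs of the 18 sterol genes per cell after thinning to 2000 UMIs, as the 10th to 90th percentile over cells (line), the mean (point) and the median (tick) for each library of each population. Lines reach 14 UMIs in Sfn Krt16 and 13.5 in Ibsp-high cells, and no more than 2 in the stromal populations.

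The genes whose level over the 32 sums most resembled the mean log2 level of the 18 sterol genes were ranked among 6143 genes with a mean of at least 20 CPM. The sums share libraries and the depth differs between them, so the correlation is a description across populations. Among the leading 10 were Il11 (r = 0.891), a cytokine among the leading genes of the Sfn Krt16 and Ibsp-high clusters, the retinol dehydrogenase Rdh11 (r = 0.888), the transcription factor Foxa3 (r = 0.887) and Pcyt2 (r = 0.884), an enzyme of phosphatidylethanolamine synthesis. Arf2, Haus8, Copb1 and Vamp3 followed at 0.874 to 0.853.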

How the data were processed

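The authors sorted Alcam+Sca-1- BLCs and sequenced 3 libraries. The deposited values are raw UMI counts per gene and cell, made with Cell Ranger 7.1.0 on mm10 per the labels. The files held 2606, 7172 and 10529 barcodes with 20985636, 79905165 and 69890252 UMIs in replicates 1, 2 and 3. The members and gene lists were chosen with earlier results of these data known.

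Barcodes under 200 genes or above 20% of mitochondrial UMIs were dropped, and the 2.02%, 5.38% and 8.18% of cells with the highest doublet scores were removed (51, 362 and 837 cells), because the automatic threshold marked 42, 1 and 0. This left 2476, 6363 and 9393 cells. Clustering used scanpy 1.11.5 (2000 variable genes, 30 principal components, 15 neighbours, Leiden resolution 1, then 0.5 for mesenchymal cells). Clusters were named from fixed marker lists. Each chondrocyte state list was given the remaining cluster with its highest level, an order set after the levels of these lists had been seen.

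Counts were summed per population and library (at least 20 cells) and fitted jointly with edgeR 4.0.16 (quasi-likelihood test, two-sided, Benjamini-Hochberg, threshold 0.05), with population and library as terms and 15303 genes past the filter on low counts. The library was a block because its populations were measured together, although the labels do not say how cells were sorted for each library. The 32 sums left 18 residual degrees of freedom, all drawn from populations of the same 3 libraries. Values after ± are SEs for log2 fold changes. Intervals cover counting error only. Alternatives were other size factors, DESeq2 1.42.0, no filter on low counts, no block, each library left out, all barcodes, cells thinned to 2000 UMIs, resolution 1 and a minimum of 10 cells. Named genes were those called with a log2 fold change of at least 1, up to 10 per comparison, the regulators Insig1, Insig2, Srebf1, Srebf2 and Scap, and the most abundant gene of each role (Hmgcs1, Cyp51 and Scd2). Of the 47 further lipid genes up to 3 were named per comparison, and 10 genes by likeness of pattern, of which 2 are not reported here. Gene positions came from GENCODE (GRCm38). Fit and code were tested on simulated data.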

Additional observations from a re-analysis of the deposited data

How the results depend on the processing

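Of 232 calls of single genes over the 13 comparisons, none changed direction in 2548 values under 11 alternatives, 436 of those values lost the threshold, and 69 calls kept it throughout. Counts of the 30 genes called moved by less than 1.5 times under other size factors, DESeq2, no filter on low counts, all barcodes, resolution 1 and the minimum of 10 cells, which removed or added no sum. Without the library block (no pairing of populations by library), Ibsp-high minus growth plate went from 19 to 11 calls, cycling minus growth plate from 11 to 5, and Ibsp-high against the other states from 20 to 12, and the other counts stayed within 1.5 times. With cells thinned to 2000 UMIs, cycling minus growth plate had 7 calls, CAR-like minus other stromal populations 3 and cycling against the other states 11. The cause was not tested. Leaving out each library in turn gave 25 to 28 calls in chondrocyte-like minus stromal populations, 2 to 24 in Ibsp-high, 0 to 19 in cycling, 7 to 24 in Cilp-high and 0 to 25 in Lef1-high minus growth plate, 2 to 9 in CAR-like and 5 to 11 in osteoblast-like minus other stromal populations. For the states against the other 5 it gave 0 to 22 calls in growth plate, 2 to 25 in cycling, 7 to 25 in Lef1-high, 2 to 23 in Ibsp-high, 8 to 26 in Sfn Krt16 and 15 to 26 in Wif1 Cytl1 cells. Without replicate 2 or 3, growth plate and cycling cells had 1 sum each, assumed to vary like the other populations. Calls over all genes moved as well. Lef1-high minus growth plate called 5080 of 15303 genes in the main fit and 7961 of 14347 without replicate 1. In CAR-like minus other stromal populations 4233 of 15303 genes became 2600 of 11395 with thinned cells. Without replicate 2 or 3 fewer of all genes were called in every comparison. In that fit on thinned cells the 30 genes went from 10 calls to 3. Counts of all genes thus changed in these fits too, and whether the 30 genes changed more was not tested. Depth limits the smallest sums most, which were those of osteoblast-like (150723 UMIs), Sfn Krt16 (184253), Ibsp-high (294371) and mural-like cells (333114) in replicate 1.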
